A study of Mus musculus with 8 samples.

Results

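Metalloproteinases and their inhibitors were taken as every gene symbol that reads Mmp, Timp, Adamts or Adamtsl followed by a number and at most 1 letter. The rule found 51 of the 38926 symbols in the tables, namely 23 matrix metalloproteinases (MMPs), 19 ADAMTS proteases, 5 ADAMTS-like genes and 4 tissue inhibitors of metalloproteinases (TIMPs). The samples were 4 bladders of mice labelled NeMO and 4 of mice labelled Sham, sequenced as polyA RNA. NeMO is partial obstruction of the bladder outlet made so that the nerves are spared, and Sham mice had the operation without it; the labels give no strain, sex, age or time after surgery and do not say whether animals were pooled. The labels call the 4 samples of a group separate but do not say that each came from its own mouse, so a p-value here reflects how far these samples spread, which may be technical.

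MMPs are zinc proteases that are made as inactive precursors and together can degrade all the main proteins of the extracellular matrix. ADAMTS enzymes are secreted relatives that trim procollagens, cut the large proteoglycans and act on microfibrils, whereas ADAMTS-like proteins keep the binding domains and lack the protease. TIMPs block the active site of MMPs, and TIMP2 also brings pro-MMP2 to MMP14 on the cell surface, where it is activated. In the bladder wall these genes are known from fibroblasts, smooth muscle, urothelium and white blood cells.

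The libraries held 29451800 to 36375313 counts in NeMO and 27212499 to 33459048 in Sham. Marker sums were those of bladder, with smooth muscle genes at 28210 to 52054 CPM in NeMO and 33061 to 44986 CPM in Sham, urothelial genes at 4985 to 7315 CPM in NeMO and 6033 to 7939 CPM in Sham, and prostate and seminal vesicle genes at 0 to 0.0291 CPM in NeMO and 0 to 0.139 CPM in Sham (CPM, counts divided by the TMM-scaled library size, are summed here over each list). Marks in the submitted file names put NeMO 1 and 3 and Sham 1, 2 and 3 in batch 1, and NeMO 2 and 4 and Sham 4 in batch 2, and this mark is what batch means here. NeMO replicate 3 stood apart from the other libraries for the genes described here. It held the highest level of 21 of the 40 members that passed the low-count filter (52.5%), against 15.6% of all 16370 genes that passed, and its median member lay 0.60 above its mean over the libraries on the log2 scale. The same median was 0.24 in NeMO 4, -0.031 in NeMO 1, -0.19 in NeMO 2 and -0.10 to -0.14 in the Sham libraries. NeMO 3 also had the highest sum of 8 fibroblast markers, at 16911 CPM. The sum was 7312 to 10999 CPM in the other NeMO libraries and 8076 to 10691 CPM in Sham. In NeMO 3 it came mostly from Col1a1 at 5092 CPM and Col1a2 at 7287 CPM. Pdgfra, Dcn, Lum, Col1a1, Col1a2 and Thy1 were highest in NeMO 3, whereas Pi16 and Dpt were lowest there, at 264 and 143 CPM. Of the 8 markers 3, Dcn, Col1a1 and Col1a2, also stand in the list of matrix substrates. NeMO 3 had the lowest sum of smooth muscle markers. The part of these markers in the results was not tested. More cells of a type and more RNA per cell cannot be told apart in bulk tissue. Where this library carries a log2 fold change, the value without it is given too.

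A group of 10 MMP genes lies together on chromosome 9, and its promoter windows differ from those of the other members in the letters they hold. The windows are the 250 bases before and 50 bases after a gene's start in RefSeq (GRCm38.p6, the same build as mm10). Of the 51 members 36 had windows, 39 windows in all. The 4 windows below, of 2 cluster genes, of the most abundant membrane MMP and of the TIMP with the highest log2 fold change, show the contrast. Capitals mark matches on either strand to the AP-1 motif TGANTCA, the PEA3 motif AGGAAG, the GC box GGGCGG and the TATA box TATAAA, and no marked match overlaps another; N is any base.
Mmp3, chr9:7445572-7445871, plus strand: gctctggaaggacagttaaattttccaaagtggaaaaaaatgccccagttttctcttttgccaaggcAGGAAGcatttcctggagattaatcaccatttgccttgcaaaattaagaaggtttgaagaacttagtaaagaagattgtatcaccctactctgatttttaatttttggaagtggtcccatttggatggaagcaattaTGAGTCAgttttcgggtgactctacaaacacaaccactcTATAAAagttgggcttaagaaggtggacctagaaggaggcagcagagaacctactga
Mmp10, chr9:7502092-7502391, plus strand: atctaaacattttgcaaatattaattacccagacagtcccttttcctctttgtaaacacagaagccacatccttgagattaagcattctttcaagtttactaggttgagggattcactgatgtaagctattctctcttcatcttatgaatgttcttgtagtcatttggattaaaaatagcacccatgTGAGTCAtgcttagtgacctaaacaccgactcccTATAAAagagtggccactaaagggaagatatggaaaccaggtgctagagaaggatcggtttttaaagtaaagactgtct
Mmp14, chr14:54431348-54431647, plus strand: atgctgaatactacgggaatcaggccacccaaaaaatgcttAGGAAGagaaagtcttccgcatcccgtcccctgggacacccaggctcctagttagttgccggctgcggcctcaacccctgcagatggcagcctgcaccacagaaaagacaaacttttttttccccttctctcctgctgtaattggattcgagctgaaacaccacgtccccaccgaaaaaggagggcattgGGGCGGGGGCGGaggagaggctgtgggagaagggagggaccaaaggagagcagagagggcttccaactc
Timp1, chrX:20869916-20870215, plus strand: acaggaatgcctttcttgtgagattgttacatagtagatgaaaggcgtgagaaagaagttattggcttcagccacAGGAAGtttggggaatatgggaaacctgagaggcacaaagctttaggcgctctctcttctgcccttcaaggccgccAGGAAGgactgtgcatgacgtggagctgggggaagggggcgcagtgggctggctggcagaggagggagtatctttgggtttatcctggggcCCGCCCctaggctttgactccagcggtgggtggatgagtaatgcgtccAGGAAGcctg
The first base of the AP-1 match lay at -46 from the start in Mmp3 and at -63 in Mmp10, and that of the TATA box at -7 and -29. Mmp14 and Timp1 had GC boxes, at -19 and -13 in Mmp14 and at -8 on the minus strand in Timp1. Neither held an exact match to the AP-1 motif or the TATA box. The Timp1 window held the near match TGAGTAA, which was not counted.

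In the cluster, 8 of 10 genes had an AP-1 match, 9 a TATA box and 0 a GC box. Of the 26 other members with windows, 0 had an AP-1 match, 3 a TATA box and 22 a GC box. The 15 members without a window could not be searched, and Mmp2, Mmp9, Mmp16, Mmp17 and Mmp19 are among them. Over all 32817 windows of the genome the shares were 7.81% for AP-1, 13.6% for TATA, 35.6% for the GC box and 35.4% for PEA3. A match is a description of the letters and says nothing of binding.

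The same cluster held little RNA in these bladders. It spans chr9:7272514-7699585 and holds Mmp13, Mmp12, Mmp1b, Mmp3, Mmp1a, Mmp10, Mmp8, Mmp27, Mmp20 and Mmp7, of which Mmp3 and Mmp12 alone passed the filter. Its summed level was 3.07, 3.97, 12.7 and 13.5 CPM in NeMO, and 15.6, 2.35, 4.82 and 5.77 CPM in Sham. The groups overlapped, and the highest value was that of Sham replicate 1. In that library Mmp12, macrophage elastase, stood at 12.1 CPM against 0.658 to 1.52 CPM in the other Sham libraries and 0.729 to 3.38 CPM in NeMO (a gene singled out after its values were seen). The sum of 7 macrophage markers was highest there too, at 566 CPM, and its part in the value was not tested.

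The 11 members below the filter were Mmp1a, Mmp1b, Mmp7, Mmp8, Mmp10, Mmp13, Mmp20, Mmp21, Mmp24, Mmp27 and Adamts13, the protease of von Willebrand factor. All 4 interstitial collagenases, Mmp1a, Mmp1b, Mmp8 and Mmp13, are among them. Together these collagenases reached 0.166 to 0.583 CPM in NeMO and 0 to 1.00 CPM in Sham. Mmp1a and Mmp1b had 0 counts in all 8 libraries, which at 258228272 counts allows up to 0.0116 CPM (3 counts, counting error only). Matrilysin, Mmp7, had 49 reads in NeMO replicate 3, with 5, 5 and 0 in the other NeMO libraries, and 1, 0, 6 and 0 in Sham.

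By level per length, Timp2, Mmp2 and Timp3 led the family. Timp2 averaged 212 CPM per kilobase of exon in NeMO and 217 in Sham. Mmp2 followed with 163 in NeMO and 89.6 in Sham, Timp3 with 72.0 in NeMO and 65.0 in Sham, and Mmp14 with 36.6 in NeMO and 29.3 in Sham. The length used was all annotated exon bases of a gene together. For Timp3 this was 8144 bases against 4722 in its longest transcript, and for Mmp2 3371 against 3078. The order of Mmp2 and Timp3 in Sham depends on that choice. Timp2, Timp3 and Mmp2 together made up 56.8% to 62.7% of the members' CPM in NeMO and 57.9% to 60.3% in Sham. Summed per length, the 23 MMPs stood at 227, 220, 415 and 307 CPM per kilobase in NeMO, and 231, 183, 199 and 213 in Sham. The 4 TIMPs stood at 347, 269, 293 and 291 CPM per kilobase in NeMO, and 296, 270, 295 and 295 in Sham. The MMP sum of NeMO replicates 3 and 4 thus lay above all Sham libraries and that of NeMO replicates 1 and 2 within the Sham range, and the TIMP sums overlapped.

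**Figure D1:**
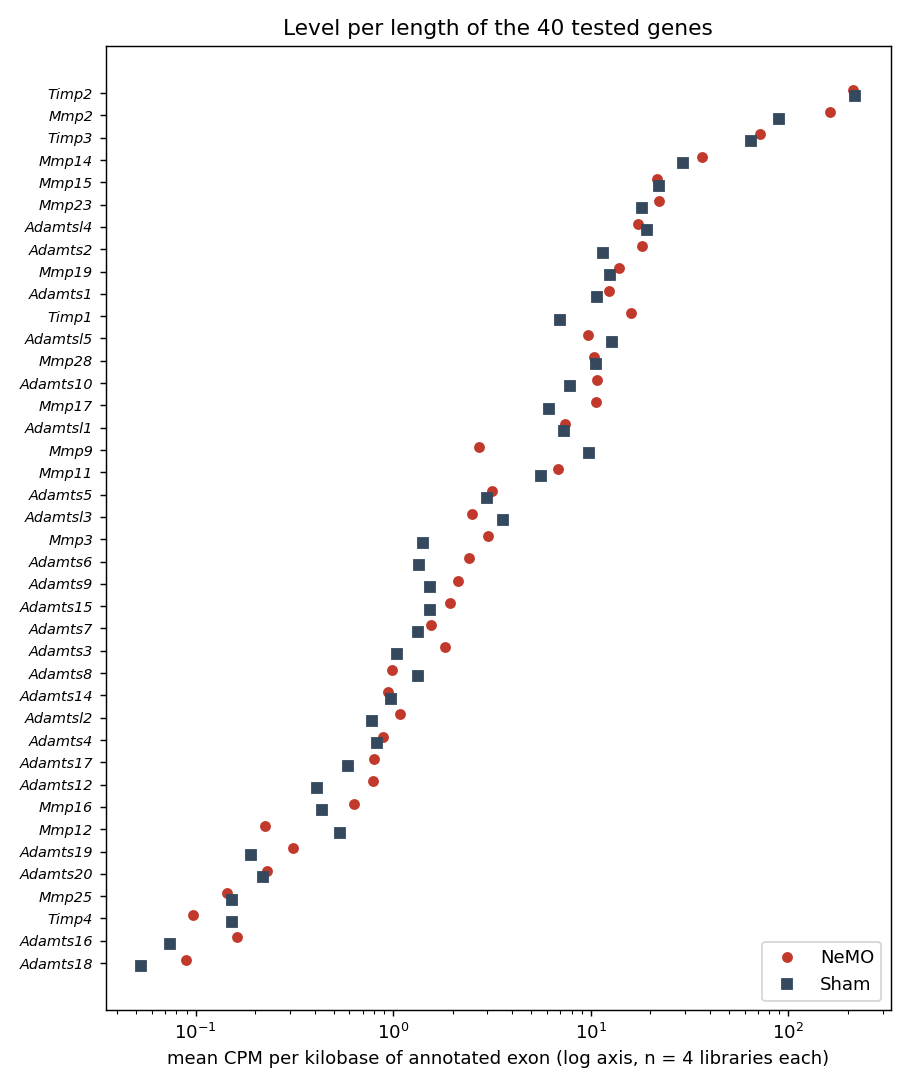
Mean CPM per kilobase of annotated exon (log axis) of the 40 members that passed the filter, in NeMO (circles) and Sham (squares), 4 libraries each. Timp2, Mmp2 and Timp3 lie to the right of all other members, and Mmp9 is the gene with the widest gap below its Sham value (2.71 in NeMO and 9.80 in Sham).

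NeMO was set against Sham to ask which of these genes differed after obstruction. With edgeR's quasi-likelihood test, batch in the model and p adjusted over all 16370 genes, 0 of the 40 members passed 0.05, where 12 genes (0.0733%) passed in all. At unadjusted p under 0.05, 11 members were higher in NeMO (9.38% of all genes were) and 1 was lower (9.14% of all genes). The 11 were Mmp2, Mmp11, Mmp14, Mmp16, Mmp17, Adamts3, Adamts6, Adamts10, Adamts12, Adamts16 and Timp1, and the 1 was Mmp9. The 4 libraries of each group did not overlap for 3 members (8.19% of all genes), Adamts6 and Adamts16, both higher in NeMO (4.39% of all genes), and Mmp9, lower in NeMO (3.81%). DESeq2's Wald test, the other tool used, called 5 members at adjusted p under 0.05, where it called 5.43% of all genes: Adamts6, Adamts12, Mmp17 and Timp1 higher (3.19% of all genes) and Mmp9 lower in NeMO (2.24%).

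The log2 fold change of NeMO over Sham was above 0 for 30 of the 40 members, against 48.3% of all genes, and its median was 0.29, against -0.0098 over all genes. By family it was above 0 for 17 of 18 ADAMTS genes (median 0.47), 9 of 13 MMPs (median 0.30), 2 of 4 TIMPs (median 0.073) and 2 of 5 ADAMTS-like genes (median -0.14). The medians over all members, ADAMTS genes and MMPs rested largely on NeMO replicate 3, the counts of signs less so. Without it the median over members was 0.066 with 28 of 41 above 0 (1 more member passed the filter), that of ADAMTS genes 0.098 with 15 of 18 above 0, and that of MMPs 0.081 with 8 of 13 above 0. The TIMP median was 0.13 with 3 of 4 above 0 and the ADAMTS-like median -0.062 with 1 of 5 above 0. In that comparison the members at unadjusted p under 0.05 were Adamts6, higher, and Mmp9, lower (13.7% of all genes).

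Marker lists of several cell types had log2 fold changes mostly below 0, where 48.3% of all genes were above 0. Above 0 were 0 of 7 macrophage markers and 0 of 5 markers of proliferating cells. So were 3 of 8 smooth muscle, 2 of 6 skeletal muscle and 2 of 5 mesothelial markers. Lists mostly above 0 were those of endothelium (6 of 6), fibroblasts (6 of 8), mast cells (5 of 6) and neutrophils (3 of 3). Adipocyte markers had log2 fold changes above 0 for 0 of 6 (median -1.19), and their sum was 331 to 1108 CPM in NeMO, lowest in replicate 3, and 870 to 2508 CPM in Sham. Urothelial markers were above 0 for 2 of 10, and DESeq2 called 5 of them lower in NeMO (2.24% of all genes). Markers of peripheral glia and neurons were above 0 for 0 of 6 (median -0.52), with sums of 217 to 394 CPM in NeMO, lowest in replicate 3, and 363 to 436 CPM in Sham. The part of these markers in the members' values was not tested.

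**Figure D2:**
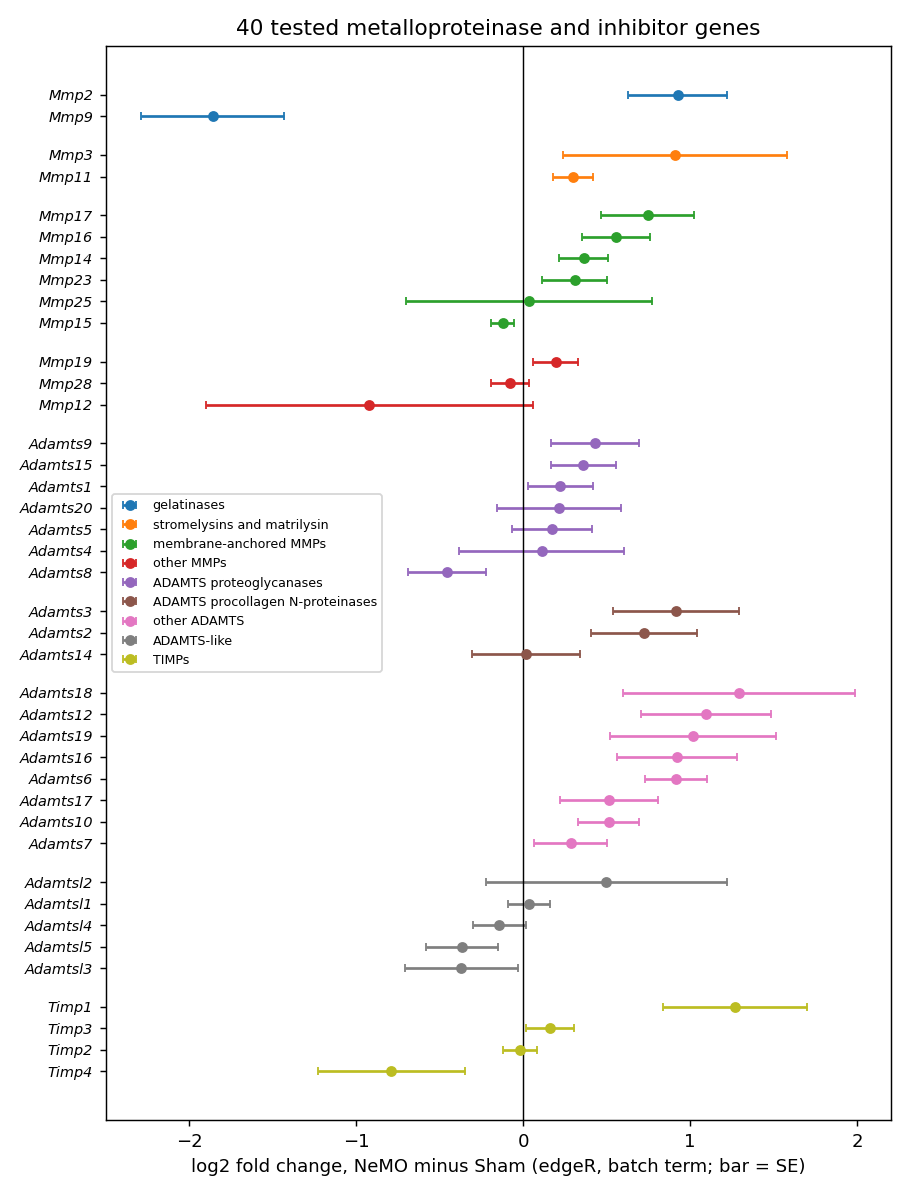
Log2 fold change (NeMO minus Sham) of the 40 members in the edgeR fit with batch as a term, grouped and coloured by family; bars are standard errors. Mmp9 lies at -1.86, apart from the rest on the left, and 17 of 18 ADAMTS genes lie to the right of 0.

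**Figure D3:**
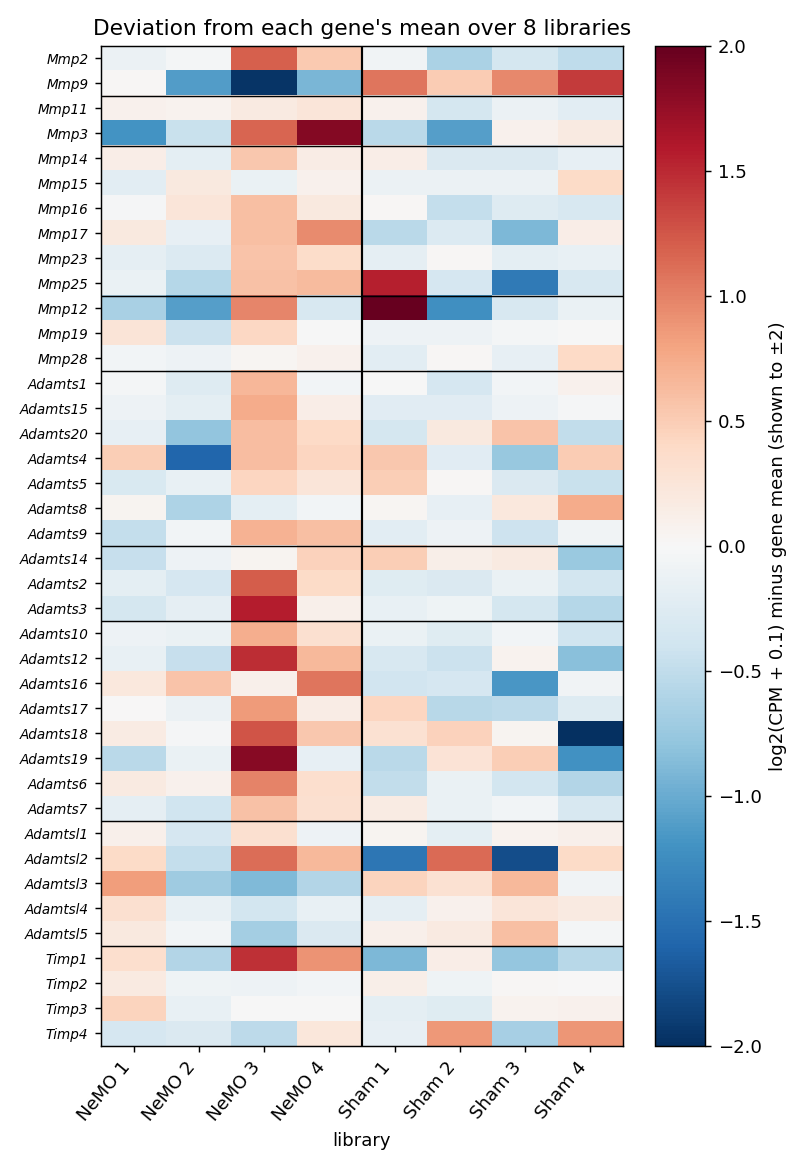
Deviation of log2(CPM + 0.1) from each member's mean over the 8 libraries, colours limited to ±2, with families parted by horizontal lines and NeMO parted from Sham by the vertical line. The column of NeMO replicate 3 is the highest for 21 of the 40 members, and Mmp9 is lowest there.

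The gelatinases, which digest denatured collagen and the type IV collagen of basement membranes, had log2 fold changes of opposite sign. Mmp9 (gelatinase B, chr2:164940780-164955850) was at 17.4, 7.78, 4.31 and 8.94 CPM in NeMO, and 35.96, 24.3, 33.3 and 45.2 CPM in Sham. Every NeMO library lay below every Sham library, with means of 9.60 ± 5.54 CPM in NeMO and 34.7 ± 8.60 CPM in Sham (SD, n = 4 each). This made Mmp9 3.62-fold lower in NeMO (log2 fold change -1.86, SE 0.43), with an edgeR adjusted p of 0.118 and a DESeq2 adjusted p of 0.00893. Its value was -1.53 in batch 1 and -2.42 in batch 2, and it stayed between -2.63 and -1.53 when any 1 library was left out. The -1.53 of the leave-outs came without Sham replicate 4, the only Sham library of batch 2. It is therefore not a separate check from the value in batch 1. Mmp9 is known from macrophages and neutrophils: the macrophage marker sum was 194 to 427 CPM in NeMO and 371 to 566 CPM in Sham with 0 of 7 markers above 0 in log2 fold change, and the neutrophil sum of 10 markers was 2.81 to 15.1 CPM in NeMO and 3.20 to 5.30 CPM in Sham, with Ly6g and Elane at 0 throughout. Their part in the Mmp9 difference was not tested.

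Mmp2 (gelatinase A, chr8:92827291-92853420) was at 362, 381, 891 and 559 CPM in NeMO, and 373, 251, 307 and 276 CPM in Sham. NeMO replicates 3 and 4 were the high libraries, and NeMO replicate 1 lay below Sham replicate 1. Means were 548 ± 245 CPM in NeMO and 302 ± 52.8 CPM in Sham (SD, n = 4 each), a log2 fold change of 0.92 (SE 0.29) with an edgeR adjusted p of 0.176 and a DESeq2 adjusted p of 0.114. It was 1.02 in batch 1, 0.78 in batch 2, and 0.48 without NeMO replicate 3.

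Of the stromelysins, Mmp11 (stromelysin 3, activated inside the cell by furin) had low spread, with 18.3, 17.98, 19.5 and 20.3 CPM in NeMO and 18.2, 13.4, 15.8 and 14.8 CPM in Sham. Its log2 fold change was 0.30 (SE 0.12, edgeR adjusted p = 0.235), and NeMO replicate 2 lay below Sham replicate 1. Mmp3, stromelysin 1, ranged over 1.29 to 11.3 CPM in NeMO and 1.39 to 3.49 CPM in Sham. Over all libraries its log2 fold change was 0.91 (SE 0.67), and without NeMO replicate 3 it was 0.081.

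Of the 6 membrane-anchored MMPs that passed the filter, 5 had log2 fold changes above 0. Mmp14, which activates pro-MMP2 and cuts fibrillar collagen, was at 212, 168, 279 and 213 CPM in NeMO, and 211, 157, 157 and 173 CPM in Sham. The groups overlapped, and the log2 fold change was 0.36 (SE 0.15, edgeR adjusted p = 0.240), or 0.21 without NeMO replicate 3. Mmp17, held to the membrane by a lipid anchor, was at 58.8, 45.8, 77.9 and 99.3 CPM in NeMO, and 35.3, 42.5, 27.5 and 56.4 CPM in Sham. Only NeMO replicate 2 lay below a Sham library, and the log2 fold change was 0.75 (SE 0.28), with an edgeR adjusted p of 0.226 and a DESeq2 adjusted p of 0.0397. It was 0.96 in batch 1, 0.37 in batch 2, and 0.57 without NeMO replicate 3. Mmp16, a transmembrane type, was at 4.44, 5.36, 6.87 and 5.18 CPM in NeMO, and 4.59, 3.22, 3.74 and 3.57 CPM in Sham, with a log2 fold change of 0.56 (SE 0.21, edgeR adjusted p = 0.205), or 0.37 without NeMO replicate 3. Log2 fold changes of the others were 0.31 for Mmp23 (0.066 without NeMO replicate 3), 0.035 for Mmp25 and -0.12 for Mmp15. That of Mmp25 turned on the Sham libraries, at 0.98 without Sham replicate 1 and -0.26 without Sham replicate 3.

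Among the remaining MMPs, Mmp19 was the most abundant by CPM, with 54.9, 34.2, 61.6 and 46.0 CPM in NeMO and 42.9, 43.1, 45.0 and 46.1 CPM in Sham. The NeMO libraries spread on both sides of the narrow Sham range, and the log2 fold change was 0.19 (SE 0.14) over all libraries and -0.19 in batch 2. Mmp28, epilysin, had a log2 fold change of -0.077, or 0.11 without Sham replicate 4, the only Sham library of batch 2. Mmp12 had one of -0.92 (SE 0.98) that turned to 0.45 without Sham replicate 1, so its direction rested on that library.

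**Figure D4:**
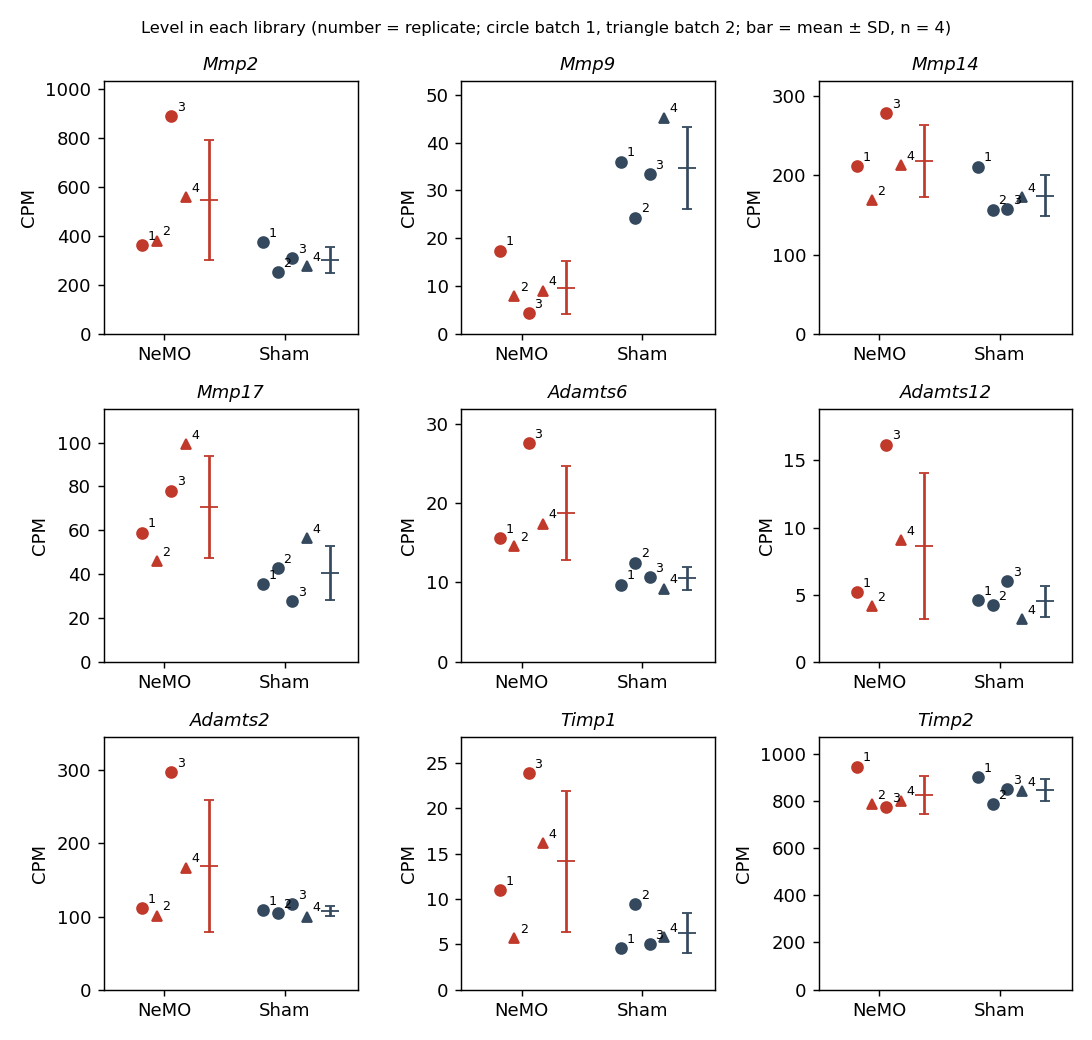
CPM of 9 members in each library, NeMO left and Sham right, with the replicate number beside each point, circles for batch 1, triangles for batch 2, and bars for the mean ± SD (n = 4). Mmp9 and Adamts6 separate the groups, NeMO replicate 3 is the highest point for Mmp2, Mmp14, Adamts2, Adamts6, Adamts12 and Timp1, and Timp2 lies between 773 and 945 CPM throughout.

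The ADAMTS procollagen N-proteinases cut the amino-terminal propeptide from fibrillar procollagens before they assemble into fibrils. Adamts2 was at 112, 101, 298 and 167 CPM in NeMO, and 109, 105, 117 and 99.9 CPM in Sham. Adamts3 was at 5.42, 6.06, 20.7 and 7.42 CPM in NeMO, and 6.24, 6.47, 5.42 and 4.63 CPM in Sham. NeMO replicate 3 alone lay far above the Sham range for both, with replicate 4 next. The log2 fold changes were 0.72 (SE 0.32, edgeR adjusted p = 0.285) for Adamts2 and 0.91 (SE 0.38, edgeR adjusted p = 0.248) for Adamts3, and without NeMO replicate 3 they were 0.21 and 0.17. The log2 fold change of Adamts14 was 0.016, and between -0.46 and 0.34 when any 1 library was left out.

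Adamts6 and Adamts10 are related proteases that act on fibrillin microfibrils. Adamts6 (chr13:104287835-104496695) was at 15.6, 14.6, 27.5 and 17.4 CPM in NeMO, and 9.72, 12.5, 10.7 and 9.19 CPM in Sham. All NeMO libraries lay above all Sham libraries, and this was the member with the smallest p. Means were 18.8 ± 5.95 CPM in NeMO and 10.5 ± 1.46 CPM in Sham (SD, n = 4 each), a log2 fold change of 0.91 (SE 0.18) with an edgeR adjusted p of 0.0833 and a DESeq2 adjusted p of 0.000526. It was 0.98 in batch 1, 0.81 in batch 2, and 0.64 without NeMO replicate 3. Adamts10 was at 69.4, 67.7, 123 and 92.6 CPM in NeMO, and 67.6, 62.5, 71.7 and 56.5 CPM in Sham, so that NeMO replicates 1 and 2 lay inside the Sham range. Its log2 fold change was 0.51 (SE 0.18, edgeR adjusted p = 0.201), or 0.26 without NeMO replicate 3.

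Adamts12, a protease of cartilage oligomeric matrix protein, was at 5.19, 4.14, 16.2 and 9.05 CPM in NeMO, and 4.57, 4.22, 6.02 and 3.15 CPM in Sham. NeMO replicates 3 and 4 lay above the Sham libraries, and NeMO replicates 1 and 2 among them. The log2 fold change was 1.10 (SE 0.39), with an edgeR adjusted p of 0.199 and a DESeq2 adjusted p of 0.0393, and it was 0.53 without NeMO replicate 3. For Adamts7, its closest relative, it was 0.28, or 0.058 without that library.

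Adamts16, Adamts18 and Adamts19 were scarce. Adamts16 was at 0.860, 1.13, 0.786 and 1.63 CPM in NeMO, and 0.530, 0.554, 0.269 and 0.684 CPM in Sham. These ranges did not overlap, although the DESeq2 adjusted p was 0.206 and the edgeR adjusted p 0.222. Adamts18 was at 0.659, 0.563, 1.51 and 0.886 CPM in NeMO, and 0.736, 0.831, 0.599 and 0 CPM in Sham, so that its log2 fold change of 1.29 (SE 0.69) turned on the 0 in Sham replicate 4 and was 0.59 in batch 1. Adamts19 was at 1.95, 2.62, 10.4 and 2.55 CPM in NeMO, and 1.94, 3.50, 4.07 and 1.18 CPM in Sham; its log2 fold change was 1.02 (SE 0.50), and 0.13 without NeMO replicate 3.

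The 7 proteoglycanases, which cut versican and aggrecan, had a median log2 fold change of 0.22. At unadjusted p under 0.05 in edgeR were 0 of the 7, against 18.5% of all genes. Adamts1, the most abundant, was at 58.3, 50.3, 95.2 and 58.1 CPM in NeMO, and 59.8, 47.7, 57.8 and 63.4 CPM in Sham. Apart from NeMO replicate 3 all NeMO values fell in the Sham range, and the log2 fold change of 0.22 (SE 0.19) was -0.062 without that library. Adamts8 was the 1 ADAMTS gene with a value below 0, at 5.36, 3.34, 4.51 and 4.95 CPM in NeMO and 5.33, 4.61, 5.99 and 8.70 CPM in Sham. Its log2 fold change was -0.46 (SE 0.24), and edgeR gave an adjusted p of 0.334. The log2 fold changes of Adamts4, Adamts5, Adamts9, Adamts15 and Adamts20 lay between 0.11 and 0.43, with DESeq2 adjusted p from 0.304 to 0.931. Without NeMO replicate 3 that of Adamts9 was 0.056, against 0.43 with it, and that of Adamts15 was 0.044, against 0.36. Adamts17, a relative of Adamts19, had a log2 fold change of 0.51, or 0.21 without NeMO replicate 3.

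Of the ADAMTS-like genes, 2 of 5 had log2 fold changes above 0. Adamtsl1, punctin-1, a matrix glycoprotein, was at 99.7, 74.0, 117 and 86.5 CPM in NeMO, and 96.3, 81.4, 97.8 and 99.9 CPM in Sham, a log2 fold change of 0.037 (SE 0.13). Adamtsl2, a microfibril protein that binds latent TGF-beta binding protein, ranged over 4.27 to 13.1 CPM in NeMO and 1.68 to 13.3 CPM in Sham, with a log2 fold change of 0.50 that ran from 0.16 without NeMO replicate 3 to 1.29 without Sham replicate 2. The log2 fold changes of Adamtsl3, Adamtsl4 and Adamtsl5 were -0.37, -0.14 and -0.37. Without NeMO replicate 3 they were -0.062, -0.012 and -0.12, and without NeMO replicate 1 they were -0.98, -0.37 and -0.58. Adamtsl3 was at 38.6 CPM in NeMO replicate 1 and 11.7 to 14.4 CPM in the other NeMO libraries, against 20.5 to 33.9 CPM in Sham.

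Leaving out NeMO replicate 1 changed the calls of the family. With the other 7 libraries edgeR called 8 members at adjusted p under 0.05, where it called 3.92% of all genes: Adamts3, Adamts6, Adamts10, Adamts12, Adamts19 and Mmp2 higher, and Adamtsl3 and Mmp9 lower in NeMO. NeMO replicate 3 was then the only NeMO library of batch 1. Adamts19 stood at 10.4 CPM in that library, and at 2.62 and 2.55 CPM in NeMO replicates 2 and 4, inside the Sham range. Adamts3 stood at 20.7 CPM in NeMO replicate 3, against 6.06 and 7.42 CPM in NeMO replicates 2 and 4.

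Of the 4 TIMPs, DESeq2 called Timp1 (5.43% of all genes) and edgeR none (0 of 4, against 0.0733% of all genes). In edgeR Timp1 was at unadjusted p under 0.05 (18.5% of all genes). Timp1 (chrX:20870166-20874735), which blocks most secreted MMPs, was at 10.9, 5.70, 23.9 and 16.1 CPM in NeMO, and 4.59, 9.45, 4.999 and 5.81 CPM in Sham. NeMO replicate 2 lay inside the Sham range and the other NeMO libraries above it. Means were 14.2 ± 7.76 CPM in NeMO and 6.21 ± 2.22 CPM in Sham (SD, n = 4 each), a log2 fold change of 1.27 (SE 0.43) with an edgeR adjusted p of 0.191 and a DESeq2 adjusted p of 0.0163. It was 1.46 in batch 1, 0.92 in batch 2, and 0.85 without NeMO replicate 3.

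Timp2, which inhibits MMPs and helps to activate pro-MMP2, was at 945, 786, 773 and 800 CPM in NeMO, and 901, 786, 849 and 841 CPM in Sham. The groups overlapped, and the log2 fold change of -0.016 (SE 0.10) turned positive in 5 of the alternatives. Timp3, bound to the matrix and an inhibitor of ADAMTS enzymes and of Adam17 too, was at 749, 497, 550 and 548 CPM in NeMO, and 484, 466, 579 and 587 CPM in Sham, where NeMO replicate 1 stood above the rest (log2 fold change 0.16, SE 0.14; -0.16 in batch 2). Timp4 was scarce, at 0.516, 0.530, 0.437 and 0.803 CPM in NeMO, and 0.589, 1.32, 0.389 and 1.33 CPM in Sham, with -0.79 (SE 0.44) as log2 fold change and an edgeR adjusted p of 0.370.

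Timp1, Timp3 and Timp4 each lie within a synapsin gene on the other strand, and it is not stated whether counting used the strand. Timp3 shares annotated exon sequence with Syn3, which was at 4.22 to 10.1 CPM in NeMO and 6.54 to 9.08 CPM in Sham. Syn1, the host of Timp1, was at 0.662 to 3.90 CPM in NeMO and 0.693 to 1.82 CPM in Sham. Syn2, the host of Timp4, was at 7.02 to 16.5 CPM in NeMO and 8.76 to 18.6 CPM in Sham, above Timp4 itself.

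Genes that act with the family were read from 5 lists, in which edgeR called 0 genes at adjusted p under 0.05 (0.0733% of all genes). Of 15 other metalloproteinases that passed the filter, 12 had log2 fold changes above 0 (median 0.23, or 0.11 without NeMO replicate 3). DESeq2 called Adam12, Bmp1 and Pappa higher (3.19% of all genes) and Pappa2 lower in NeMO (2.24%). Adam12, a membrane protease of growing mesenchyme, was at 14.2, 10.5, 41.9 and 16.4 CPM in NeMO, and 8.48, 8.31, 11.1 and 7.33 CPM in Sham (log2 fold change 1.34, or 0.73 without NeMO replicate 3, DESeq2 adjusted p = 0.00142). Bmp1, which removes the carboxy-terminal propeptide of procollagens, was at 115, 104, 187 and 143 CPM in NeMO, and 103, 97.0, 110 and 82.8 CPM in Sham (0.55, or 0.35 without NeMO replicate 3, DESeq2 adjusted p = 0.0231). Pappa, a protease of insulin-like growth factor binding proteins, had a log2 fold change of 0.74, or 0.46 without NeMO replicate 3 (DESeq2 adjusted p = 0.0107). Its relative Pappa2 had a log2 fold change of -1.12 (DESeq2 adjusted p = 0.0355). Both separated the groups, Pappa higher (4.39% of all genes) and Pappa2 lower in NeMO (3.81%).

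Of 11 other inhibitors and modulators, 4 were above 0 (median -0.23). DESeq2 called 2, Spock2 and Spock3, both lower in NeMO (2.24% of all genes). These encode testicans, proteoglycans of the matrix that are known to modulate membrane MMPs. Spock2 was at 36.5, 41.2, 20.9 and 31.3 CPM in NeMO, and 60.1, 65.7, 80.2 and 75.7 CPM in Sham (log2 fold change -1.19, edgeR adjusted p = 0.0691, DESeq2 adjusted p = 2.69e-07). Spock3 was at 25.4, 20.6, 9.93 and 10.3 CPM in NeMO, and 57.4, 45.0, 84.4 and 47.8 CPM in Sham (-1.75, edgeR adjusted p = 0.109, DESeq2 adjusted p = 0.00384). All NeMO libraries lay below all Sham libraries for both (3.81% of all genes). Bsg, the MMP inducer basigin, followed by p (-0.23, edgeR adjusted p = 0.206).

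Of 11 activators and their inhibitors, 7 were above 0 (median 0.21). DESeq2 called Cma1 and Tpsb2, the mast cell proteases chymase and tryptase, higher in NeMO (3.19% of all genes). Cma1 was at 10.98, 3.68, 7.66 and 14.3 CPM in NeMO, and 2.97, 3.19, 2.45 and 2.39 CPM in Sham (log2 fold change 1.77, DESeq2 adjusted p = 0.000136), and Tpsb2 at 10.1, 3.15, 9.03 and 17.0 CPM in NeMO, and 2.59, 2.39, 2.69 and 1.82 CPM in Sham (2.09, DESeq2 adjusted p = 4.48e-05). The groups did not overlap for either (4.39% of all genes). Both genes are in the list of 7 mast cell markers, whose sum was 43.6 to 81.4 CPM in NeMO and 34.1 to 49.8 CPM in Sham. Of the 6 that passed the filter, 5 did not overlap and were higher in NeMO (4.39% of all genes). The marker that opposed these 5 was Kit, at 28.4, 26.1, 14.2 and 11.2 CPM in NeMO, and 34.0, 22.1, 37.5 and 39.2 CPM in Sham (log2 fold change -0.74, edgeR adjusted p = 0.313). The part of the mast cell markers in the values of Cma1 and Tpsb2 was not tested. Serpine2, an inhibitor of serine proteases, followed them by p (log2 fold change 1.33, or 0.66 without NeMO replicate 3, edgeR adjusted p = 0.201).

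Of 21 matrix substrates, 19 were above 0 (median 0.71), or 15 without NeMO replicate 3 (median 0.31). DESeq2 called 6 higher in NeMO (3.19% of all genes): Fn1, Eln, Bgn, Col4a1, Col7a1 and Nid1. Fn1, fibronectin, was at 4668, 2146, 4323 and 4780 CPM in NeMO, and 1435, 1569, 1321 and 1608 CPM in Sham. The groups did not overlap for Fn1, with NeMO higher (4.39% of all genes). Its log2 fold change was 1.45 (edgeR adjusted p = 0.0691, DESeq2 adjusted p = 0.00272). The log2 fold changes of Eln, elastin, and Bgn, biglycan, were 1.52 and 0.71. The summed level of the 23 substrates was 20293, 14967, 37406 and 26190 CPM in NeMO, and 18601, 15209, 16354 and 15270 CPM in Sham. The order of the NeMO libraries, with replicate 3 highest and replicate 2 lowest, was that of the members' medians above.

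Of 21 transcriptional regulators of MMP genes, 11 were above 0 (median 0.0067). DESeq2 called Fosl2 and Runx2 higher in NeMO (3.19% of all genes). Fosl2, a subunit of AP-1, was at 293, 339, 364 and 372 CPM in NeMO, and 291, 270, 267 and 259 CPM in Sham (log2 fold change 0.32, DESeq2 adjusted p = 0.0397), and Runx2, a regulator of Mmp13 in bone, was at 4.87, 8.15, 14.4 and 10.5 CPM in NeMO, and 7.42, 4.74, 5.99 and 2.77 CPM in Sham (1.02, or 0.64 without NeMO replicate 3, DESeq2 adjusted p = 0.0447). Fos, another AP-1 subunit, was at 22.6, 18.5, 14.0 and 12.1 CPM in NeMO, and 23.7, 43.0, 22.4 and 55.4 CPM in Sham (-1.13, edgeR adjusted p = 0.170).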

How the data were processed

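Per the labels' protocols, RNA of bladder tissue was isolated with Trizol and DNase, and directional polyA libraries were read as single ends. The authors deposited whole-number counts per gene symbol in 1 table per library. The tools named in the submitters' processing notes are Trimmomatic, STAR, featureCounts and DESeq2, with the mm10 build and no versions. Which annotation was used, and how strand and multi-mapping reads were handled in counting, is not stated.

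The analysis used R 4.3.3 and edgeR 4.0.16 (filterByExpr with minimum count 10 and minimum total 15, TMM, robust quasi-likelihood F-test, two-sided) and, as an alternative, DESeq2 1.42.0, with terms for batch and group and Benjamini-Hochberg adjustment over all genes tested at 0.05. Batch is the mark in each submitted file name: batch 1 holds NeMO 1 and 3 and Sham 1 to 3, batch 2 holds NeMO 2 and 4 and Sham 4. Positions and exon lengths come from GENCODE M21 (mm10), promoters from RefSeq. The libraries gave 26.3 to 36.1 reads at 1 CPM, and the biological coefficient of variation was 0.186. The fit was also run on simulated counts with known changes. These held no batch effect and no library set apart from its group, so the run does not bear on either.

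The members and the gene lists were chosen with earlier results of these data known, so no p is adjusted over a list and no list was tested. Values in every library are given for the 16 tested members with the smallest p, the 4 Timp genes and the most abundant tested member of each family, and values for the 3 genes with the smallest p in each list of partners; other genes singled out were chosen after their values were seen. Other normalizations, filters and covariates, each batch alone and leaving out each library were tried.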

Additional observations from a re-analysis of the deposited data

Results flagged for a closer look

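Among 46 groups of 4 libraries, 3 held a library far from the others of its group by Dixon's test, and chance alone flags about 1 group in 20. Adamts19 stood at 10.4 CPM and Adamts3 at 20.7 CPM in NeMO replicate 3. Timp2 stood at 945 CPM in NeMO replicate 1, above 773 to 800 CPM in the other NeMO libraries.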

How the results depend on the processing

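edgeR called 12 genes and 0 members. DESeq2 called 865 genes and 5 members. Without the low-count filter there were 172 genes and 1 member (Adamts6), without the batch term 7 genes, in batch 1 alone 0 genes (1756 at unadjusted p under 0.05), and in batch 2 alone, with 1 Sham library taken to vary like the NeMO pair, 7 genes and 1 member (Mmp9). Leaving out 1 library at a time gave 0 to 652 genes and 0 to 8 members. The median log2 fold change of the members then ran from 0.066 to 0.46. Sham 4 was the only Sham library of batch 2. With batch in the model, leaving it out made the log2 fold changes rest on batch 1. That leave-out and the fit of batch 1 alone are therefore not separate checks. The count of genes was 652 without NeMO replicate 1, 50 without NeMO 2, 7 without NeMO 3, 0 without NeMO 4 (2549 at unadjusted p under 0.05), 3 without Sham 1, 4 without Sham 2 and 0 without Sham 4 (1656 at unadjusted p under 0.05). With the replicate number as a block in place of the batch term, 0 genes passed (2648 at unadjusted p under 0.05) and 0 members (8 higher and 1 lower at unadjusted p under 0.05). Same-numbered libraries deviated together with correlations of -0.0096, 0.082, 0.044 and 0.32, and NeMO 1 and NeMO 3 correlated best with a Sham library of another number, so the numbers were not taken as pairs. The sign of the log2 fold change held under every alternative for 27 of 40 members. It turned for Adamtsl1 (replicate block -0.0093, length and GC correction -0.051, both together -0.093, batch 2 -0.31, and -0.083 to 0.24 over the leave-outs), Timp2 (length and GC correction 0.019, batch 1 0.022, and -0.10 to 0.046), Adamts1 (batch 2 -0.22, and -0.062 to 0.48), Mmp19 (batch 2 -0.19) and Timp3 (batch 2 -0.16, and -0.014 to 0.35), among those named with all values, and for Adamts4, Adamts5, Adamts14, Adamts20, Adamtsl2, Mmp12, Mmp25 and Mmp28; the cause was not tested. For the members DESeq2 called, adjusted p over all alternatives ran from 0.000526 to 0.389 for Adamts6, 0.0393 to 0.554 for Adamts12, 0.0397 to 0.869 for Mmp17, 0.0163 to 0.723 for Timp1 and 0.000979 to 0.478 for Mmp9. The partner genes were also read without NeMO replicate 3, a choice made after seeing the data. Members are longer than other genes (median longest transcript 4947.5 against 3207 bases), and with the length and GC correction 28 of 40 were above 0. Members near 1 CPM rest on 26.3 to 36.1 reads per library.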
